A study of Mus musculus with 18 samples.

Results

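The genes described here write, copy, erase or guard DNA methylation in germ cells. They are the 9 mouse genes Uhrf1, Dnmt1, Dnmt3b, Dnmt3a, Dnmt3l, Morc1, Tet1, Tet2 and Tet3, taken from the 22657 genes of the expression table by name and NCBI gene number. Their RNA was measured in 18 samples of cultured testes from ICR mice, 3 samples in each of 6 groups. The A0, A10 and A50 testes came from mice without busulfan and were kept in 0, 10 or 50 μg/mL alginate oligosaccharide (AOS), short chains of the sugars that make up seaweed alginate. For B0, BA10 and BA50 the mice had been injected at 3 weeks of age with 40 μg per g body weight of busulfan, which alkylates DNA and depletes the germ cells that divide, and AOS was again 0, 10 or 50 μg/mL. The testes were taken 2 weeks after the injection, and by the paper the mice without busulfan were matched to these in age. Every culture lasted 48 h in medium with serum. The cultures used 6 testes per treatment and were repeated 3 times, but the labels do not tie a sample to an animal, so the p-values below measure the spread between these samples, part of which may be technical. AOS was added to the medium only, so no group shows AOS given to an animal. Values are FPKM, reads of a gene scaled to its length and to the reads of the sample, so that levels can be set side by side between genes. In GRCm38 the genes span chr17:56303337-56323486 (Uhrf1), chr9:20907206-20959888 (Dnmt1), chr2:153649411-153687730 (Dnmt3b), chr12:3801559-3914443 (Dnmt3a), chr10:78042287-78063622 (Dnmt3l), chr16:48431237-48630905 (Morc1), chr10:62804570-62887469 (Tet1), chr3:133463677-133545136 (Tet2) and chr6:83362373-83457208 (Tet3).

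In mammalian DNA, methyl groups sit mostly on the cytosine of CpG pairs. DNMT1 copies the methyl marks onto the new strand after each round of DNA replication and is brought to the freshly copied DNA by UHRF1, which binds DNA methylated on a single strand. DNMT3A and DNMT3B set new marks, DNMT3L helps them without being an active enzyme itself, and the TET enzymes oxidise the methyl group, which leads to its removal. In the male germ line most marks are erased in the embryonic precursors and set anew before birth, with the help of DNMT3L and of small RNAs bound to PIWI proteins, and MORC1 is needed to keep transposable elements silent in those cells. After birth, spermatogonia divide and must copy these marks, whereas spermatocytes go through meiosis and spermatids no longer replicate their DNA.

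The sum of FPKM ranged from 463970 to 511274 per sample, and 14291 to 15040 genes reached 1 FPKM. The read depth of the samples is unknown, and the table keeps only 2 decimals. Replicate 3 of A10 stood apart from the other samples of its group, with Pearson's r across genes of 0.962 to 0.968 against 0.992 between the other two. The 7 fat cell genes summed to between 206.8 and 887.4 FPKM in B0 and to no more than 138.1 FPKM in any other sample. Genes of Sertoli cells, Leydig cells, peritubular cells and all germ cell stages were detected in every group, and no gene of the 11 marker lists was at 0 in all 3 samples of a group. In the mean over the AOS levels, 10 of 12 spermatocyte genes fell with busulfan past the limits used below, as 3.52% of all genes tested did. The summed level of that list was 30.7 to 60.5 FPKM with busulfan against 253.0 to 339.3 FPKM without it. The spermatogonium list summed to 126.7 to 249.1 FPKM with busulfan and to 243.0 to 359.1 FPKM without it, and the DNA replication and mitosis list to 76.9 to 101.7 FPKM against 159.1 to 200.1 FPKM. Of the spermatogonium list 5 of 11 tested genes fell past those limits, and of the replication list 3 of 12. The spermatid list had 0 of 12 genes past those limits, which 0.0887% of all genes tested passed as higher. These shifts in cell makeup accompany every busulfan value below, and their part in the values was not tested. In such bulk samples, fewer cells of a type and less RNA per cell cannot be told apart.

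The stretches of DNA before the start sites are shown before the RNA values, 1 each for the members with the clearest busulfan values below and a RefSeq window. RefSeq windows (GRCm38.p6) were at hand for 8 of the 9 members, 15 windows in all, and the 250 bases before the start were read. Morc1 had no entry. The windows shown for Uhrf1 and Dnmt1 lie inside the gene spans given above, and that of Dnmt3b lies partly inside. The bases that follow the Dnmt3b window were not found in a GENCODE transcript of the gene, unlike those of the other windows shown. Capitals mark 3 kinds of letters on either strand. The first is TTTCGCGC, one form of the site of the E2F factors that switch on DNA replication genes. The second is CCAAT, the box bound by NF-Y. The last is GGGCGG, the box bound by SP1, and matches can overlap each other. The windows of Uhrf1 at chr17:56304063-56304312 (plus strand), of Dnmt1 at chr9:20952624-20952873 (minus strand), of Dnmt3b at chr2:153649199-153649448 (plus strand) and of Dnmt3l at chr10:78042037-78042286 (plus strand) read, 5′ to 3′:
Uhrf1: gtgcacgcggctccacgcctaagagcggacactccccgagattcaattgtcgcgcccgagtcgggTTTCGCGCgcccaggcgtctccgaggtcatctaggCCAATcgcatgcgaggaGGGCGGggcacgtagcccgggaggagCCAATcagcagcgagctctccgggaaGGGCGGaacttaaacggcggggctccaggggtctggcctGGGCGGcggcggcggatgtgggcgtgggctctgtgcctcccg
Dnmt1: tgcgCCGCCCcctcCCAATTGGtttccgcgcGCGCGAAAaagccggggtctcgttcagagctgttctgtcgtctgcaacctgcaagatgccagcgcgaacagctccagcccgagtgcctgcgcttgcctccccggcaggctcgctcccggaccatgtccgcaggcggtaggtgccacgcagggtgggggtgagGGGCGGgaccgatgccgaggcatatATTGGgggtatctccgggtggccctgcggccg
Dnmt3b: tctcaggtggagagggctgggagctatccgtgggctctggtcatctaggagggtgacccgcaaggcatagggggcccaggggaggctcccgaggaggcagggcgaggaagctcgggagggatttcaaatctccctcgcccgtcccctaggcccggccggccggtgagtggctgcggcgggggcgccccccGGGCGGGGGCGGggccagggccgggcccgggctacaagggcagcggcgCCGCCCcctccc
Dnmt3l: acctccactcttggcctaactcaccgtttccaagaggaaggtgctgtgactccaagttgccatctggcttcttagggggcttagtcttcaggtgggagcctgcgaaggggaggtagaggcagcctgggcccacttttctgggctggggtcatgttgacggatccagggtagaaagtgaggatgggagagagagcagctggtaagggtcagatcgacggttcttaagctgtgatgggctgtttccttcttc

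The pair that copies methylation shared the E2F letters. TTTCGCGC stood 185 bases before the start that ends the Uhrf1 window shown, on the plus strand. It began 219 bases before the start that ends the Dnmt1 window shown, on the other strand. It was held by 0.256% of all 32851 windows. Any of TTTCGCGC, TTTGGCGC, TTTCCCGC and TTTGCCGC, on either strand, was held by 1.86% of the windows and by at least 1 window of 2.16% of the genes. None of these letters was in the windows of Dnmt3b, Dnmt3a, Dnmt3l, Tet1, Tet2 or Tet3. Uhrf1 had 2 windows and Dnmt1 had 3, of which 1 each held the letters, and that window is the one shown. In both genes it lies downstream of every other listed start, so the letters are not upstream of those starts. Genes with more windows have more chances to hold a match. The E2F letters were also in 3 of 11 genes of the DNA replication list with a window (Cdk1, Mcm5 and Mcm6) and in 2 of 10 genes of a list of maintenance partners (Hells and Cdca7). CpG pairs numbered 30 in the Uhrf1 window shown, 26 in that of Dnmt1, 21 in that of Dnmt3b and 5 in that of Dnmt3l, against a median of 6 over all windows. The Uhrf1 window not shown held 10, and the Dnmt1 windows not shown held 2 and 7. The windows shown for these genes hold TTTCGCGC, which itself contains CpG pairs, so their counts depend partly on that choice. The windows of Tet2 and Dnmt3a held up to 51 and 40 CpG pairs, and all 3 Dnmt3l windows held 3 to 5. A match of letters is a description of the sequence and shows no binding.

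Without busulfan, Dnmt1 and Uhrf1 had the highest levels of the members, 15.3 ± 1.89 and 14.4 ± 0.227 FPKM in A0 (mean ± SD, n = 3). Dnmt3a followed at 7.12 ± 0.561 FPKM and Dnmt3l at 6.10 ± 1.01 FPKM. Tet3 at 3.61 ± 0.495 FPKM, Tet2 at 2.94 ± 0.287 FPKM, Dnmt3b at 2.61 ± 0.846 FPKM and Morc1 at 1.59 ± 0.189 FPKM were lower. The ranges of Tet3, Tet2 and Dnmt3b overlapped in A0, as did those of Dnmt1 and Uhrf1 and those of Dnmt3a and Dnmt3l. Tet1 was barely detected, between 0.05 and 0.16 FPKM in all 18 samples.

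**Figure D1:**
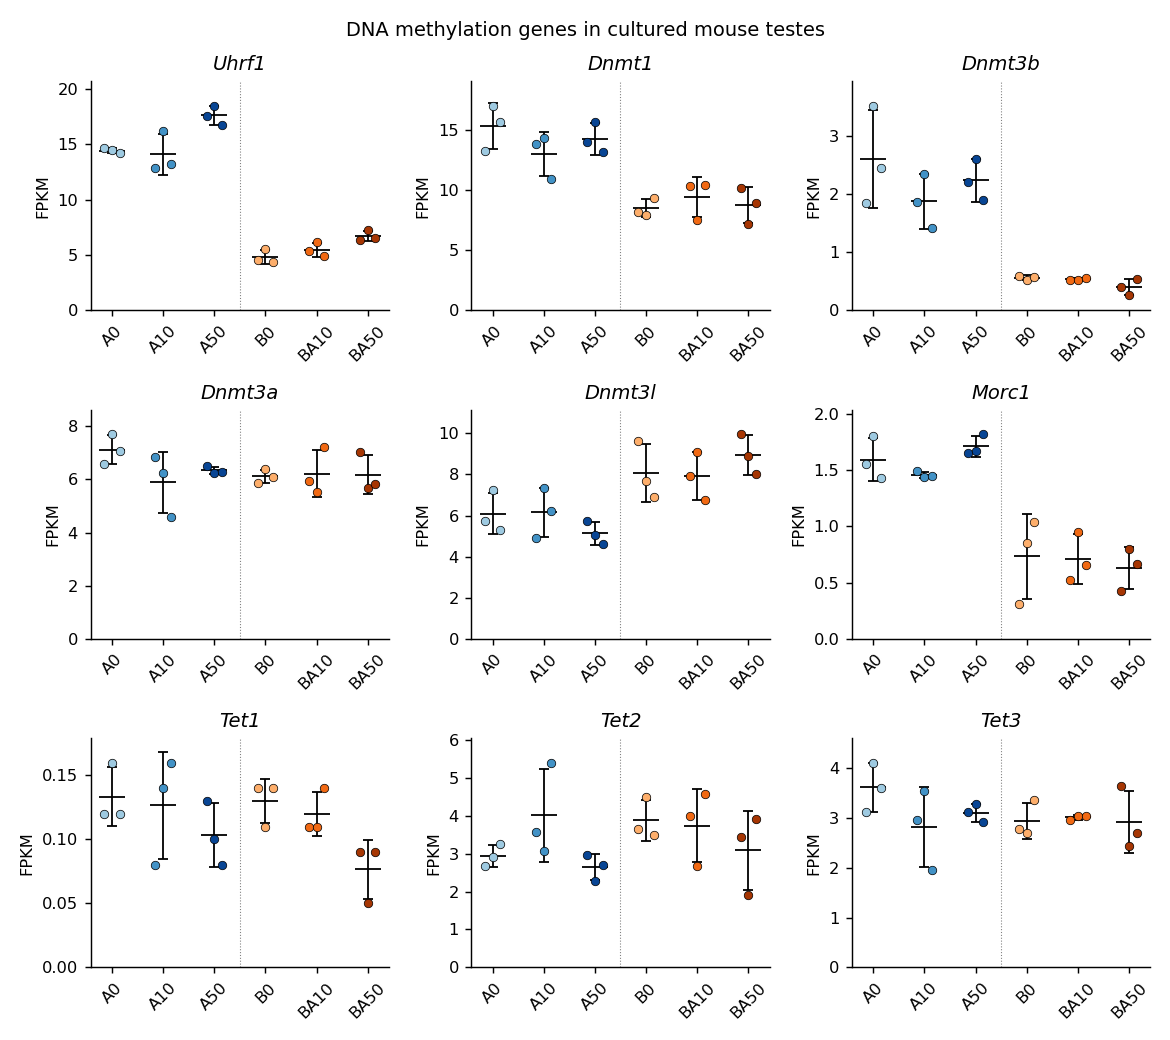
FPKM of the 9 members in each of the 18 samples (points), by group, with the mean and SD of the 3 samples (bars), and the groups without busulfan left of the dotted line. Uhrf1, Dnmt1, Dnmt3b and Morc1 lie lower in all 9 busulfan samples than in the 9 others, Dnmt3l lies mostly higher, and Dnmt3a, Tet2 and Tet3 overlap.

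The RNA of the maintenance pair fell with busulfan. Uhrf1 stood at 14.65, 14.48 and 14.20 FPKM in A0, at 12.83, 16.22 and 13.27 FPKM in A10 and at 17.59, 18.51 and 16.77 FPKM in A50. After busulfan it stood at 4.59, 5.54 and 4.35 FPKM in B0, at 5.33, 6.18 and 4.92 FPKM in BA10 and at 6.41, 7.28 and 6.52 FPKM in BA50. Every busulfan sample was below every other sample, and the highest of them, 7.28 FPKM, was well under the lowest of the others, 12.83 FPKM. The means over 9 and 9 samples differed 2.71-fold. On the scale log2(FPKM + 1), which understates the change of genes near or below 1 FPKM, the mean of the 3 busulfan changes was -1.30 (SE 0.061, limma adjusted p = 3.87e-10). A gene is called here where the Benjamini-Hochberg adjusted p over the 15790 genes tested was at most 0.001 and the log2 change at least 1 in size, and Uhrf1 was called in all 3 busulfan comparisons and in their mean. The change was -1.41 in B0 against A0, -1.22 in BA10 against A10 and -1.27 in BA50 against A50.

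Dnmt1, the copying enzyme itself, had the smaller change of the pair. It stood at 13.26, 17.00 and 15.63 FPKM in A0, at 13.81, 14.31 and 10.92 FPKM in A10 and at 13.94, 15.68 and 13.11 FPKM in A50. After busulfan it stood at 8.20, 7.96 and 9.37 FPKM in B0, at 10.29, 7.50 and 10.43 FPKM in BA10 and at 10.18, 7.17 and 8.89 FPKM in BA50. The groups did not overlap, but the highest busulfan sample, 10.43 FPKM in BA10, came close to 10.92 FPKM in replicate 3 of A10. The means differed 1.60-fold, and the log2 change was -0.62 (SE 0.086, limma adjusted p = 3.76e-05), below the fold limit. Dnmt1 passed the wider limit of an adjusted p of at most 0.05 without a fold limit in B0 against A0 (-0.77, limma adjusted p = 0.00223) and in BA50 against A50 (-0.65, limma adjusted p = 0.00523), and missed it in BA10 against A10 (-0.43, limma adjusted p = 0.0552).

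Of the enzymes that set new marks, Dnmt3b fell, and Dnmt3a passed no limit. Dnmt3b stood at 1.85, 3.52 and 2.45 FPKM in A0, at 1.86, 2.35 and 1.41 FPKM in A10 and at 2.20, 2.61 and 1.89 FPKM in A50. After busulfan it stood at 0.59, 0.52 and 0.58 FPKM in B0, at 0.52, 0.52 and 0.56 FPKM in BA10 and at 0.40, 0.27 and 0.54 FPKM in BA50. No busulfan sample reached 0.60 FPKM and no other sample was under 1.41 FPKM. Dnmt3b thus entered the test, which needed 1 FPKM in 3 samples, only through the samples without busulfan. The ratio of the means, 4.48, was the largest among the members. The log2 change was -1.09 (SE 0.093, limma adjusted p = 2.16e-07), and -1.94 with a pseudocount of 0.1 in place of 1. Dnmt3b was called in B0 against A0 (-1.18, limma adjusted p = 0.000117) and in BA50 against A50 (-1.20, limma adjusted p = 6.29e-05), while in BA10 against A10 its change of -0.89 (limma adjusted p = 0.000981) was short of the fold limit. It was called there without replicate 3 of A10 (-1.01). With quantile normalization its mean change was -0.98, just short of that limit. Dnmt3c, a rodent gene that arose as a copy of Dnmt3b and lies next to it, had no entry under its gene number in the expression table. It could therefore not be analysed, and whether its reads were counted under Dnmt3b was not tested.

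Dnmt3a, which acts beside DNMT3B on most of the genome, ranged from 4.60 to 7.70 FPKM (median 6.50) without busulfan and from 5.51 to 7.22 FPKM (median 5.92) with it. The ranges overlapped almost fully, and the log2 change was -0.05 with a 95% interval from -0.20 to 0.10 (limma adjusted p = 0.601). In B0 against A0 alone, all 3 B0 samples (5.87, 6.38 and 6.07 FPKM) were below the 3 A0 samples (6.58, 7.70 and 7.08 FPKM), with a change of -0.19 (limma adjusted p = 0.40). A gap of that kind, in that direction, was found in 22.7% of all genes tested.

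Dnmt3l, the cofactor of the de novo enzymes, was the only member with a higher value past the wider limit. It stood at 5.75, 7.23 and 5.31 FPKM in A0, at 4.93, 7.33 and 6.22 FPKM in A10 and at 5.72, 5.05 and 4.63 FPKM in A50. After busulfan it stood at 9.61, 7.66 and 6.90 FPKM in B0, at 7.91, 9.07 and 6.75 FPKM in BA10 and at 9.96, 8.90 and 8.0 FPKM in BA50. The samples with and without busulfan overlapped between 6.75 and 7.33 FPKM, except at 50 μg/mL AOS, where every BA50 sample was above every A50 sample. The busulfan mean was 1.43 times that of the other samples, and the log2 change was 0.46 (SE 0.089, limma adjusted p = 0.000873). By comparison the change was 0.35 without AOS (limma adjusted p = 0.17), 0.32 at 10 μg/mL (limma adjusted p = 0.164) and 0.70 at 50 μg/mL (limma adjusted p = 0.00426), and the difference between the changes at 50 and at 0 μg/mL did not pass its test (0.35, 95% interval -0.12 to 0.81, limma adjusted p = 0.903). In the same mean, 2 of 9 Sertoli cell genes, 2 of 7 Leydig cell genes and 1 of 12 spermatid genes were higher past the wider limit, which 13.3% of all genes were. So were 3 of 6 endothelial, 7 of 7 fat cell, 1 of 8 macrophage and 0 of 6 peritubular genes. The list medians, in that order, were 0.32, 0.37, 0.41, 0.22, 1.18, 0.10 and 0.08. In B0 against A0 they were -0.02, 0.33, -0.04, 0.54, 2.56, -0.04 and 0.38, where Dnmt3l had 0.35 and passed no limit. The part of these lists in the Dnmt3l values was not tested.

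Morc1, the silencer of transposable elements, stood at 1.55, 1.80 and 1.43 FPKM in A0, at 1.49, 1.44 and 1.45 FPKM in A10 and at 1.65, 1.67 and 1.82 FPKM in A50. After busulfan it stood at 0.31, 0.85 and 1.04 FPKM in B0, at 0.52, 0.95 and 0.66 FPKM in BA10 and at 0.43, 0.80 and 0.67 FPKM in BA50. All 9 busulfan samples were lower than the others, and replicate 1 was the lowest in each of the 3 busulfan groups. Among the busulfan samples only replicate 3 of B0, at 1.04 FPKM, reached 1 FPKM. Morc1 too thus entered the test only through the samples without busulfan. The means differed 2.30-fold. The log2 change of -0.62 (SE 0.088, limma adjusted p = 4.52e-05) passed the wider limit only, and so did the change at each AOS concentration. With a pseudocount of 0.1 the change was -1.15 (limma adjusted p = 0.000197), which would be called.

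The TET genes did not move past any limit with busulfan. Tet2 ranged from 2.29 to 5.40 FPKM without busulfan and from 1.91 to 4.56 FPKM with it, with a log2 change of 0.12 and a 95% interval from -0.14 to 0.38. Its highest value, 5.40 FPKM, was that of replicate 3 of A10. Tet3 ranged from 1.95 to 4.11 FPKM and from 2.43 to 3.63 FPKM, with a change of -0.07 and an interval from -0.25 to 0.12. Replicate 3 of A10 had the lowest Tet3 and the lowest Dnmt3a of all 18 samples. The Sertoli cell list summed to 1208 FPKM in that sample and to 2636 to 5622 FPKM in the other 17, and the part of this in its member values was not tested. Tet1 did not pass the filter of 1 FPKM in 3 samples and was not tested with limma. Its means were 0.133 FPKM in A0 and 0.130 FPKM in B0, and the exact permutation test of busulfan within the AOS levels gave p = 0.326.

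**Figure D2:**
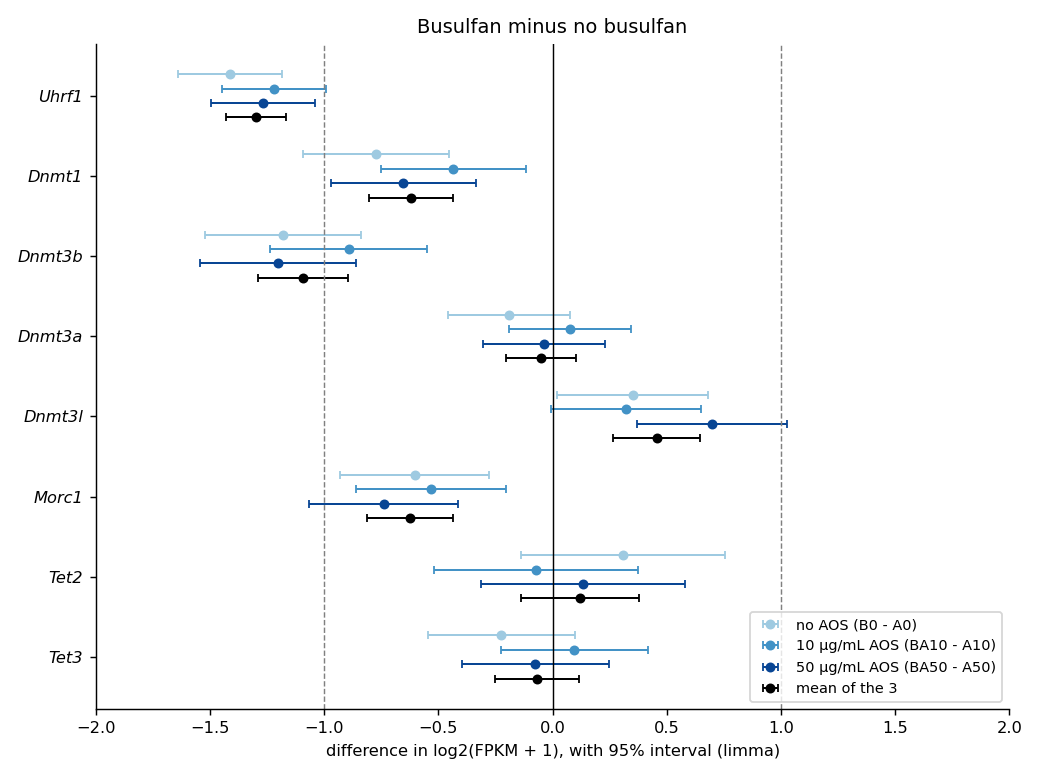
Busulfan minus no busulfan for the 8 members tested, as the difference in log2(FPKM + 1) with its 95% interval from limma, at each AOS concentration (blue) and as the mean of the 3 (black). Dashed lines mark the fold limit. The mean lies beyond it for Uhrf1 (-1.30) and Dnmt3b (-1.09), and the interval of the mean is above 0 only for Dnmt3l.

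Of the 8 members tested in the mean of the busulfan changes, 2 were called lower (3.52% of all genes tested were) and 0 higher (0.0887%). By the wider limit 4 were lower (24.8% of all genes) and 1 was higher (13.3%), and the median change was -0.34 against 0.01 over all genes tested. All 9 busulfan samples were below all 9 others for 4 members, where 9.66% of the genes tested were, and above them for 0 members (0.513%). Dnmt3b and Morc1 are in these counts only through the samples without busulfan, where they are higher, so their share in the counts is a description. Per comparison, 2 members were called lower in B0 against A0 (2.49% of all genes), 1 in BA10 against A10 (3% of all genes) and 2 in BA50 against A50 (3.36% of all genes). By the wider limit 4 were lower in B0 against A0 (12.3%), 3 in BA10 against A10 (15.2%) and 4 in BA50 against A50 (16.2%), where 1 was higher (3.7%). Without overlap between the groups, 5 members were lower (22.7%) and 1, Tet2, was higher (10.5%) in B0 against A0, 4 were lower in BA10 against A10 (20.2%), and 4 were lower (25.7%) and 1 was higher (16%) in BA50 against A50. The 3 comparisons have no samples in common. The exact two-sided permutation test within the 3 AOS levels gave p = 0.00025 for Uhrf1, Dnmt1, Dnmt3b and Morc1, the smallest p that its 8000 divisions can give, and p = 0.00125 for Dnmt3l, over 9 members tested. Between any pair of groups of 3, such a test cannot go below 0.1. When only the 6 samples compared entered the fit, which leaves fewer degrees of freedom for the spread, no member was called in B0 against A0 (Uhrf1 limma adjusted p = 0.00121) or in BA10 against A10 (Uhrf1 limma adjusted p = 0.0061), and Uhrf1 alone was called in BA50 against A50. Of the 7 fat cell genes, 3 were called higher in the mean of the busulfan changes (0.0887% of all genes). All 7 passed the wider limit there (13.3%). In B0 against A0 4 were called higher, as were 8 of all 15790 genes tested. In each of the other busulfan comparisons 0 were called or passed the wider limit. Of all genes tested, 2 were called higher in BA10 against A10 and 6 in BA50 against A50. Their part in the member values was not tested.

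Since the scaling of a sample cancels in a ratio of its own genes, ratios between members were also read. They were chosen after the values were seen and are given without a test. The ratio of Uhrf1 to Dnmt1 was 0.852 to 1.28 without busulfan and 0.464 to 1.01 with it, with an overlap that came from BA50, and within each AOS level the busulfan samples were all lower. The ratio of Dnmt3l to Dnmt3b was 1.94 to 4.41 without busulfan and 11.9 to 33.0 with it, and that of Dnmt3a to Dnmt3b was 2.19 to 3.67 and 9.95 to 21.0. Dnmt3b made up 8.27% to 12.5% of the summed FPKM of Dnmt1, Dnmt3a and Dnmt3b without busulfan and 2.06% to 4.02% with it. The summed TET level per summed DNMT level was 0.231 to 0.295 in 8 of the samples without busulfan and 0.444 in replicate 3 of A10. With busulfan it was 0.335 to 0.491, so that only that sample overlapped.

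**Figure D3:**
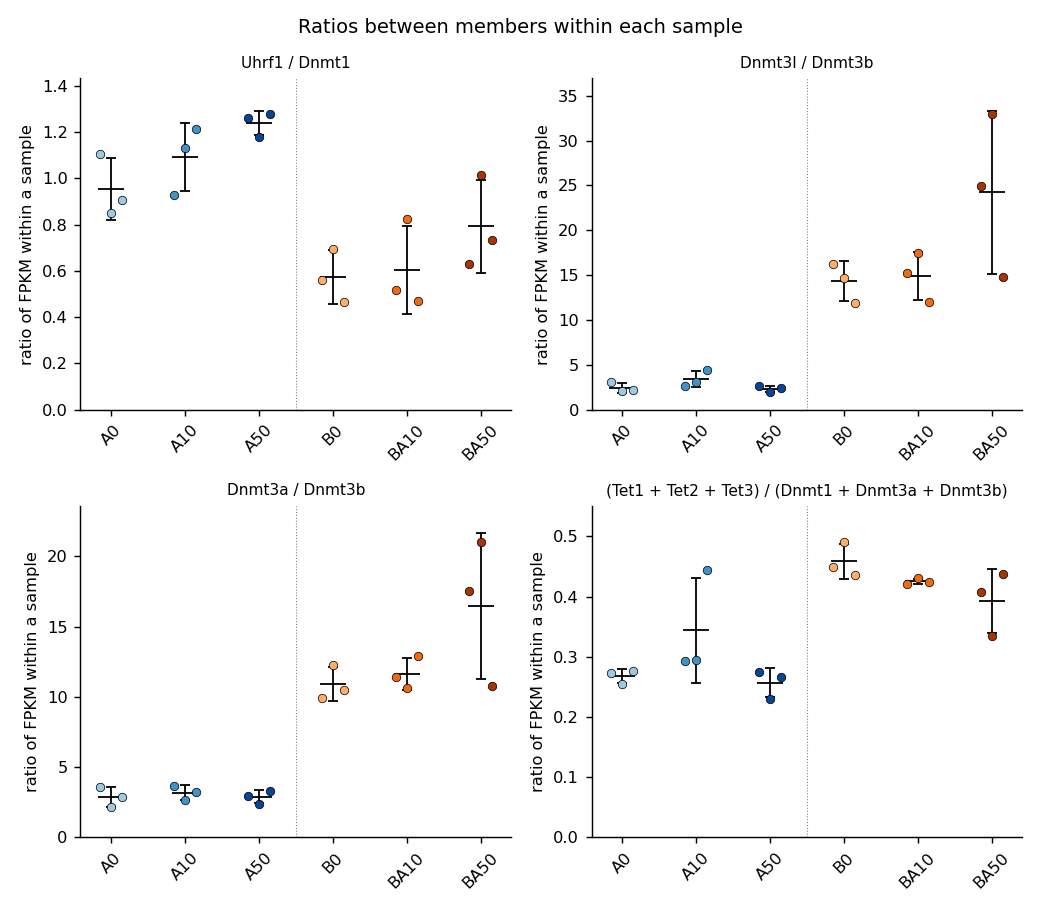
Ratios of FPKM between members within each of the 18 samples (points), by group, with mean and SD of 3 samples (bars). The ratios of Dnmt3l and of Dnmt3a to Dnmt3b lie apart with and without busulfan (dotted line), while the TET to DNMT ratio overlaps through 1 A10 sample at 0.444.

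The other genes of methylation control were read from 6 lists with 53 genes in the table, of which 50 were tested. In the mean of the busulfan changes 8 were called lower (3.52% of all genes tested were) and 0 higher (0.0887%). By the wider limit 25 were lower (24.8%) and 3 higher (13.3%), with a median of -0.27 against 0.01 over all genes. Of 10 maintenance partners, 2 were called lower (3.52% of all genes) and 7 passed the wider limit as lower (24.8%). Hells, a chromatin remodeller that opens nucleosomes for DNMT1 and DNMT3B, was 17.17 to 22.06 FPKM without busulfan and 2.68 to 3.68 FPKM with it (-2.34, limma adjusted p = 1.6e-12). Cdca7, its DNA-binding partner, was 4.51 to 8.20 FPKM and 1.33 to 2.19 FPKM (-1.49, limma adjusted p = 7.18e-09). Neither overlapped.

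The list of de novo and piRNA-guided methylation had 5 of 12 genes called lower (3.52% of all genes) and 10 lower by the wider limit (24.8%). Mov10l1, the helicase that starts piRNA production, had the largest change in these lists, from 13.89 to 23.89 FPKM without busulfan to 0.27 to 0.65 FPKM with it (-3.77, limma adjusted p = 1.14e-13). Pld6, a nuclease of the mitochondrial surface that cuts piRNA precursors, was 4.26 to 9.31 FPKM and 0.63 to 1.36 FPKM (-2.03). Piwil2, a PIWI protein, was called with -1.88, Tdrd9, a helicase of the same pathway, with -1.88, and Asz1, a partner of PLD6 at the mitochondrion, with -1.47. None of the 5 overlapped between samples with and without busulfan, where 9.66% of all genes tested were lower without overlap. Mov10l1 entered the test only through the samples without busulfan.

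Of the methyl donor cycle, Shmt1, which feeds 1-carbon units into the folate cycle, was called lower (-1.05, limma adjusted p = 3.75e-08) and Mtr, the methionine synthase, had -0.48 (limma adjusted p = 0.0327), with a list median of -0.18. By the wider limit, 24.8% of all genes were lower and 13.3% higher. Of 4 other MORC genes, 0 were called and 3 passed that limit as lower. Among them were Morc2b with -0.98 (limma adjusted p = 7.65e-05) and Morc2a with -0.55. Among 8 methyl-CpG readers, 1 was lower and 2 were higher by it, Mbd3 with -0.34 and Zbtb4 with 0.24 having the largest values. Among 8 tested genes that remove oxidised cytosine or work with TET, 1 was lower and 1 higher. These were the repair scaffold Xrcc1 with -0.57 and the stress gene Gadd45a with 0.40. The medians of the last pair of lists were both 0.14.

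**Figure D4:**
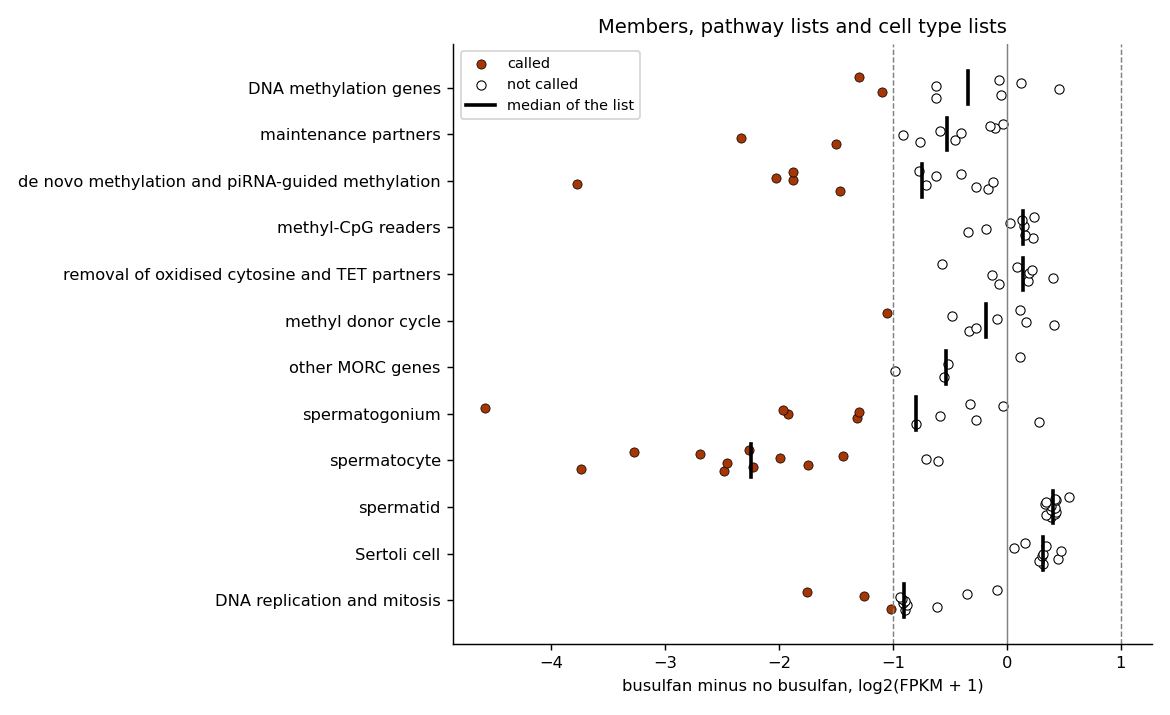
Mean busulfan change of each tested gene, as the difference in log2(FPKM + 1), for the members (top row), the 6 pathway lists and 5 marker lists, with called genes filled and the median of each list as a bar. The members' median is -0.34, that of the spermatocyte list -2.25, that of the DNA replication and mitosis list -0.90 and that of the spermatid list 0.41.

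AOS moved 1 member by a limit used here, Uhrf1, and only in a comparison added after its values had been seen. No member was called in A10 or A50 against A0 or in BA10 or BA50 against B0, where 0% of all genes tested were called, and none passed the wider limit (limma, 8 members). That limit was passed by 0% of all genes in A10 and A50 against A0, by 0.0253% as lower in BA10 against B0, and by 0.0887% as lower and 0.00633% as higher in BA50 against B0. The unadjusted p was under 0.05 for Uhrf1 alone, in A50 against A0 and in BA50 against B0. The pairs of AOS comparisons share the A0 or the B0 samples. All 3 A50 samples (16.77 to 18.51 FPKM) were above the 3 A0 samples (14.20 to 14.65 FPKM), a gap found in that direction in 17.6% of all genes, with a change of 0.27 (95% interval 0.04 to 0.50, limma adjusted p = 0.275). All 3 BA50 samples (6.41 to 7.28 FPKM) were above the 3 B0 samples (4.35 to 5.54 FPKM), a gap found in 11.2% of all genes, with a change of 0.41 (95% interval 0.19 to 0.64, limma adjusted p = 0.101). The difference between these changes with and without busulfan did not pass its test (0.14, 95% interval -0.18 to 0.46, limma adjusted p = 0.975).

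Taken over both busulfan states, which share no samples, the Uhrf1 change at 50 μg/mL was 0.34 (SE 0.075, limma adjusted p = 0.0369), where 5.7% of all genes were higher and 2.16% lower by the wider limit. The exact permutation test within busulfan states gave p = 0.005, the smallest its 400 divisions can give, for a gene picked from 9 after its values were seen. The same exact permutation test gave p = 0.015 for Tet1, with a change of -0.05 on the log2(FPKM + 1) scale, and 0.135 or more for the 7 other members. The limma adjusted p ranged from 0.0153 to 0.114 with 1 sample of the 4 groups left out in turn and was above 0.05 in 9 of these 12 fits. It was 0.0515 with the replicate number as a block. At 10 μg/mL the change was 0.06 (limma adjusted p = 0.624). Uhrf1 in BA50 remained far below A0, at 6.74 ± 0.474 FPKM against 14.4 ± 0.227 FPKM (n = 3 each).

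The marker lists did not all move the same way at 50 μg/mL AOS. All macrophage genes were lower in A50 against A0 (median -0.52) and in BA50 against B0 (-0.51). All endothelial genes were lower in both as well (medians -0.35 and -0.65), and their sums did not overlap in either. No gene of these lists passed the wider limit in either comparison. The fat cell list had medians of -0.20 in A50 against A0 and -2.57 in BA50 against B0. Of its 7 genes, 0 were lower by the wider limit in A50 against A0. In BA50 against B0 4 were, beside 0.0887% of all genes. The spermatogonium list had medians of -0.11 in A50 against A0 and 0.05 in BA50 against B0. The DNA replication and mitosis list had 0.08 and 0.07, with 0 genes of either list past the wider limit in these comparisons. The summed replication level was higher without overlap in A50, at 181.1 to 200.1 FPKM against 163.9 to 177.8 FPKM in A0. In BA50 it was 89.43 to 101.7 FPKM against 76.9 to 89.6 FPKM in B0, with a narrow overlap. The summed spermatogonium level was higher without overlap in both, 308.6 to 311.8 FPKM in A50 against 258.7 to 281.7 FPKM in A0 and 200.4 to 249.1 FPKM in BA50 against 126.7 to 161.7 FPKM in B0. Those sums rested on a few abundant genes, chiefly Dmrtb1 in A50 (mean 184.7 against 115.1 FPKM) and Dmrtb1 and Uchl1 in BA50, while Uchl1 had a lower mean in A50 (52.97 against 75.95 FPKM). The spermatid list had a median of 1.075 in BA50 against B0, with sums of 5616 to 12000 FPKM against 2663 to 3808 FPKM and 0 genes past the wider limit. In the mean over both busulfan states, 5 of 7 fat cell genes and 2 of 6 endothelial genes were lower by the wider limit (2.16% of all genes). In that mean 2 of 12 replication genes and 2 of 12 spermatocyte genes were higher (5.7%). The part of these shifts in the Uhrf1 values was not tested.

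For the other members the AOS changes lay between -0.31 and 0.32, and all their 95% intervals included 0. In A10 against A0 (lower in 12.2% of all genes, higher in 7.81%) and in BA10 against B0 (7.75% and 3.64%) no member was free of overlap, and in A50 against A0 Dnmt3a was lower without overlap (23.2%). The largest changes were those of Dnmt3b (-0.31) and Tet2 (0.32) in A10 against A0, where A10 holds the sample that stood apart. Without that sample the Dnmt3b change was -0.19. With each sample left out in turn, the Dnmt3b change ranged from -0.47 to -0.14 and the Tet2 change from 0.13 to 0.46. Tet1 was lower in BA50 (0.05 to 0.09 FPKM) than in B0 (0.11 to 0.14 FPKM), without overlap, a gap found in that direction in 13.5% of the genes tested, at levels where the 2 decimals of the table leave coarse steps. In the 6 group means, Dnmt1, Dnmt3b and Morc1 kept all groups without busulfan above all groups with it, and the ranges of neighbouring groups within each busulfan state overlapped for these 3 genes. For Uhrf1 the order was A50, A0, A10, BA50, BA10 and B0, and only A0 with A10 and BA10 with B0 overlapped.

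**Figure D5:**
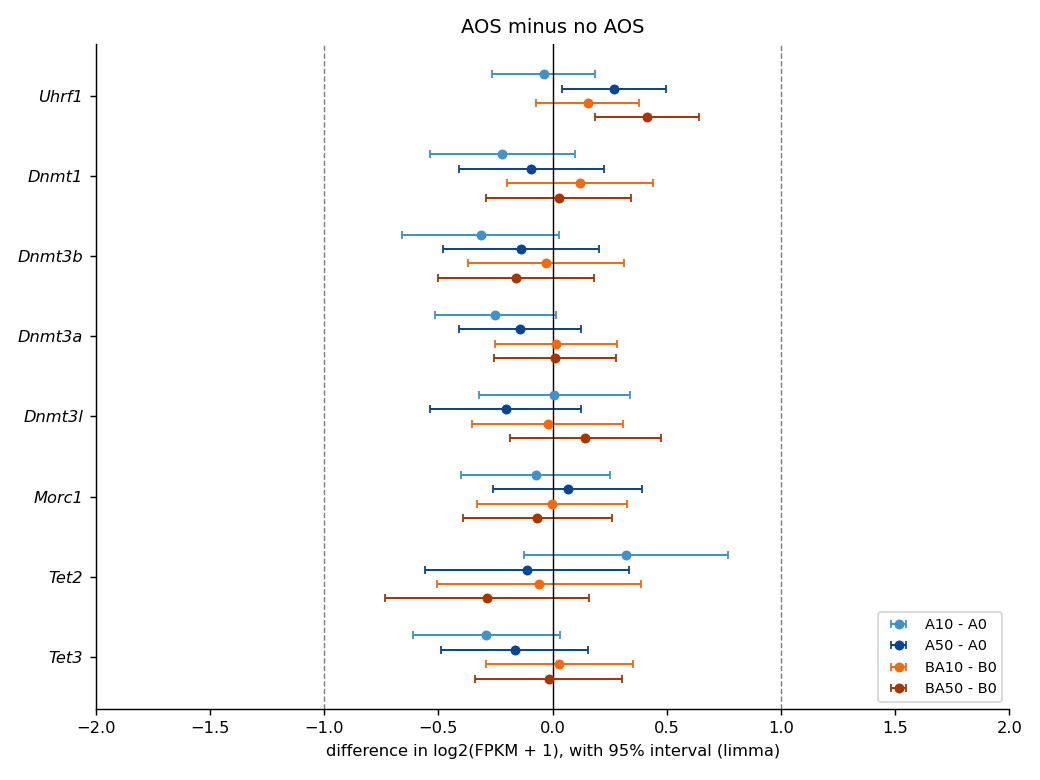
AOS minus no AOS for the 8 members tested, as the difference in log2(FPKM + 1) with its 95% interval from limma, without busulfan (blue) and after it (orange and brown). Only the 2 intervals of Uhrf1 at 50 μg/mL, around 0.27 and 0.41, lie above 0, and no point reaches the dashed fold limit.

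The genes whose pattern over the 18 samples was most like that of each member were read from Pearson's r on log2(FPKM + 1). These correlations describe the same libraries and rest largely on the busulfan difference where a member has one. Uhrf1 was closest to Cenpf, Sohlh2 and Brca2 (r = 0.99 each), a centromere protein, a transcription factor of spermatogonia and a recombination protein. Dnmt1 was closest to Prpf8 (r = 0.98), Mcm6 (0.97) and Setdb1 (0.96), a splicing factor, a subunit of the replicative helicase and a histone methyltransferase. Dnmt3b was closest to Caprin2 (0.99), Timeless (0.98) and Nlrp4c (0.98), and Morc1 to Phf13 (0.96), Pik3r3 (0.95) and Rnf34 (0.95). Dnmt3l, the member that was higher after busulfan, was closest to Rbms1 (0.91), Rin1 (0.90) and Vasp (0.90). The members that passed no limit with busulfan had Zfp710, Tubgcp6 and Huwe1 (Dnmt3a, 0.86 to 0.88), Eaf1, Zfp948 and Ccng2 (Tet2, 0.94 each) and Mcmbp, Zc3h13 and Nol10 (Tet3, 0.93 to 0.94) nearest to them.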

How the data were processed

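RNA-seq values of 18 cultured testis samples were analyzed, 3 in each of 6 groups taken from the sample labels. The authors selected poly(A) RNA, ran the libraries on a HiSeq instrument and deposited FPKM with 2 decimals. The supplementary methods name SOAPaligner and call the unit RPKM, while the submitters' processing notes name HISAT, Bowtie2, RSEM and GRCm38.p5, so the pipeline behind the values is not settled. The read counts and the depth are unknown, and no counting interval was computed. Gene numbers were matched to symbols and positions through RefSeq (GRCm38), and 155 of 20811 had no symbol. The 1846 gene models without a number stayed in the tests.

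A gene entered the test when 3 or more samples reached 1 FPKM (15790 of 22657 genes, 8 of the 9 members). Tests were run with limma 3.58.1 in R 4.3.3 (lmFit, eBayes with trend) on log2(FPKM + 1), with all 18 samples in one fit and Benjamini-Hochberg adjustment over all genes tested. The spread had 12 residual and 2.56 prior degrees of freedom. The limits for a call, 0.001 and 1, follow the study's methods, whose test needs read counts and was not run. Comparisons were busulfan at each AOS level and in the mean, AOS in each busulfan state, and the differences between AOS changes. The means of the AOS changes over both busulfan states were added after the values were seen. The fit was tested on simulated data. Single members were tested with exact two-sided permutation tests. Python 3.11.15, pandas 2.3.3, NumPy 2.4.6 and matplotlib 3.10.9 were used for tables and figures.

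The members and lists were chosen with earlier results of these data known. Genes named were the members, pathway genes called or with the 2 largest changes of their list, and the 3 genes most like each member. Replicate numbers were checked for pairing through the correlation of deviations from the group means. In BA50 against B0 all 3 pairs correlated (0.562, 0.422 and 0.138), so a blocked fit of those groups was added, in which no member was called (Uhrf1 0.41, limma adjusted p = 0.194). In the other comparisons not all pairs correlated above 0.1. Alternatives were another pseudocount, filter, scaling, spread estimate or set of samples, the replicate block, other limits and leaving out each sample. The correlations between members and the ratios were chosen after seeing the data.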

Additional observations from a re-analysis of the deposited data

How the results depend on the processing

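Uhrf1 stayed called in the mean of the busulfan changes under all 27 alternatives, with changes from -1.43 to -1.23, and Dnmt1, Dnmt3b, Dnmt3l and Morc1 kept their direction under all of theirs in that mean. The number of members called was 2 in B0 against A0, and it was 4 by the wider limit, 1 with the strict filter (mean of at least 5 FPKM, which drops Dnmt3b) and 0 when only the groups compared were fitted. In BA10 against A10 it was 1, and it was 3 by the wider limit, 2 with a pseudocount of 0.1, 2 with samples scaled to the same sum, 0 in a fit of only those groups, and 1 to 2 with a sample left out, the 2 coming without replicate 3 of A10. In BA50 against A50 it was 2, and 5, 1 and 1 by the wider limit, with the strict filter and in the fit of only those groups. In the busulfan mean it was 2, with Morc1 called as well at a pseudocount of 0.1, and 5 by the wider limit, 1 with the strict filter and 1 with quantile normalization. In the added mean of the 50 μg/mL changes it was 0, and 1 by the wider limit. With the replicate number as a block the members called stayed at 2, 1, 2 and 2 in the busulfan comparisons and their mean and at 0 in the AOS comparisons. The cause of these shifts was not tested beyond what each alternative removes.

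Over the whole table, 401 genes were called in B0 against A0 (189 with the strict filter, 58 in a fit of only those groups, 2173 by the wider limit), 476 in BA10 against A10 (261, 49 and 2987) and 536 in BA50 against A50 (280, 179 and 3143). The busulfan mean had 570 (320 with the strict filter, 856 with a pseudocount of 0.1, 6018 by the wider limit). The AOS comparisons had 0, with 1 each in A10 and A50 against A0 at a pseudocount of 0.1. By the wider limit 4 genes passed in BA10 against B0 and 15 in BA50 against B0 (4 and 13 with a fold limit), and 1241 in the added mean at 50 μg/mL (29 with a fold limit). Without replicate 1 of B0, 1 gene was called in each of these 3.

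Changes of sign were confined to members that passed no limit in the comparison concerned. With quantile normalization the change became 0.0559 for Dnmt3a and 0.0401 for Tet3 in BA50 against A50, 0.0339 for Dnmt3a and 0.0336 for Tet3 in the busulfan mean, 0.0273 for Uhrf1 and 0.0008 for Morc1 in A10 against A0, 0.0185 for Dnmt3b and 0.0428 for Morc1 in BA10 against B0, and 0.0346 for Tet3 in BA50 against B0. With samples scaled to the same sum it became -0.0205 for Dnmt3l in A10 against A0, 0.0172 for Morc1 in BA10 against B0, -0.0136 for Dnmt3a in BA50 against B0 and 0.0193 for Dnmt3l in the difference between the AOS changes at 10 μg/mL. With a pseudocount of 0.1, Morc1 in BA10 against B0 became 0.052.

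With a sample left out, the sign also changed in these ranges. In BA10 against A10 they were -0.0663 to 0.176 for Dnmt3a, -0.211 to 0.117 for Tet2 and -0.0788 to 0.232 for Tet3. In BA50 against A50 they were -0.12 to 0.0121 for Dnmt3a, -0.0162 to 0.36 for Tet2 and -0.203 to 0.0138 for Tet3. In A10 against A0 they were -0.108 to 0.137 for Dnmt3l and -0.137 to 0.0217 for Uhrf1, and in A50 against A0 -0.294 to 0.0383 for Dnmt3b. In BA10 against B0 they were -0.0818 to 0.0864 for Dnmt3a, -0.114 to 0.0991 for Dnmt3l, -0.192 to 0.128 for Morc1, -0.185 to 0.115 for Tet2 and -0.0162 to 0.103 for Tet3. In BA50 against B0 they were -0.0783 to 0.148 for Dnmt1, -0.0727 to 0.0592 for Dnmt3a, -0.257 to 0.0627 for Morc1 and -0.143 to 0.073 for Tet3. In the difference between AOS changes they were -0.158 to 0.0908 for Dnmt3l and -0.118 to 0.201 for Morc1 at 10 μg/mL, and -0.198 to 0.135 for Dnmt3b and -0.323 to 0.053 for Tet2 at 50 μg/mL. With 3 samples a group, unknown depth and 2 decimals, changes of this size could not be told from 0, and Tet1 lay at or under 0.16 FPKM.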

Other observations

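The members did not vary together in the same way within groups as between them. Over all 18 samples Uhrf1 and Dnmt1 had r = 0.83 on log2(FPKM + 1), but the deviations from the group means had r = -0.32. Uhrf1 and Morc1 had r = 0.89 over all samples and 0.26 within groups. Dnmt1 kept positive values within groups with Tet3 (0.77), Dnmt3a (0.74) and Dnmt3b (0.67), and without replicate 3 of A10 these were 0.72, 0.67 and 0.60. Dnmt3l and Dnmt3b, which had r = -0.72 over all samples, had 0.33 within groups. Dnmt3l and Uhrf1 likewise had -0.73 over all samples and 0.49 within groups. The points share libraries, and 3 samples a group leave few degrees of freedom, so these are descriptions of 18 samples, chosen after the values were seen.

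The E2F letters were also read in the other lists, where single genes held them, beside 2.16% of all genes with a window. They stood in 1 of 4 other MORC genes with a window (Morc4), in 1 of 10 spermatogonium genes (Kit) and in 1 of 8 spermatocyte genes (Sycp3), and in 0 of the genes with a window in the lists of de novo methylation, methyl-CpG readers, removal of oxidised cytosine, methyl donors, spermatids and the somatic and blood cell types.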
